A study of Mus musculus with 3 samples.

Results

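The genes described here are 32 mouse genes of cholesterol synthesis, sterol sensing, uptake control and efflux. They were chosen by name for their place in the pathway, with earlier results of these data known. They were taken from 55536 annotated genes, of which 22028 are protein-coding. RNA had been sequenced, after depletion of ribosomal RNA, from chromatin-bound material of macrophages derived from bone marrow of C57BL/6J mice, which are primary cells grown in culture from precursors. All 3 libraries belong to 1 condition. The cells had received 100 ng/ml Lipid A, the lipid anchor of bacterial lipopolysaccharide and the ligand of TLR4, for 12 h, had then spent 12 h after washing, and were given 100 ng/ml Lipid A again for 10 min. No unstimulated library was analysed here, so no value below measures a response to Lipid A. The labels call the libraries biological replicates with separate biosamples and 1 shared donor identifier, and do not give age or sex. Whether the cultures came from separate mice is not stated, so the p-values below reflect the spread of these 3 samples alone.

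Cells hold membrane cholesterol steady through opposing transcription programmes. When sterols are scarce, SCAP carries the SREBP transcription factors out of the endoplasmic reticulum and they switch on the synthesis enzymes, and when sterols are plentiful the INSIG proteins hold SCAP back. Oxysterols activate the liver X receptors (LXRs), which pair with retinoid X receptors (RXRs) and switch on the efflux pumps. Macrophages take up cholesterol with the cells and lipoproteins they engulf, so export and storage as esters are central to their sterol balance. RNA on chromatin is mostly RNA being made or not yet released from its gene, so a level here is not a level of mature mRNA.

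Counts assigned to genes summed to 13538605, 19949204 and 18224466 in replicates 1, 2 and 3. The labels give 1 µg, 250 ng and 500 ng of input RNA for these libraries. The 32 genes held 0.199%, 0.224% and 0.211% of the counts. All 10 of 10 macrophage markers were detected, summing to between 765 and 1054 TPM per library. TPM is the deposited length-scaled abundance. None of the 24 markers of hepatocytes, fibroblasts, T cells, B cells, neutrophils and adipocytes was detected, and the highest summed level of any of these lists was 1.21 TPM. A gene counts as detected here when it has at least 1 TPM in every library. In bulk RNA a lower level cannot be told apart from fewer cells that make the RNA.

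Of the 32 genes, 30 were detected, set against 45.6% of all protein-coding genes. In all, 23 of them had at least 100 counts in every library. On the log2(TPM + 0.1) scale the median over the LXR targets and efflux genes was 6.38 ± 0.25 (SD, n = 3), that of the oxysterol and ester enzymes 5.25 ± 0.40, that of the nuclear receptors 4.88 ± 0.19 and that of the sterol-sensing genes 4.30 ± 0.17. The enzymes of the early part of synthesis were at 2.24 ± 0.42 and those of the sterol part at 2.54 ± 0.14. The order of these groups below the LXR targets depended on the setting. With means over genes the oxysterol and ester enzymes were at 3.30, below the sensing genes at 4.01, in CPM, which scales counts to library size and not to length, they were at 4.96, below the nuclear receptors at 5.36, and in the second transcript tables, which hold a separate quantification of each library, early enzymes at 3.22 were above sterol enzymes at 2.75. All 17 synthesis enzymes averaged under 25 TPM. The median over all 32 genes was 3.27 ± 0.23, against 3.60 ± 0.11 over the 10050 detected protein-coding genes. Among those detected coding genes 3 of the 32 stood at or above the 90th percentile by mean TPM, and 18 lay below the median.

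**Figure D1:**
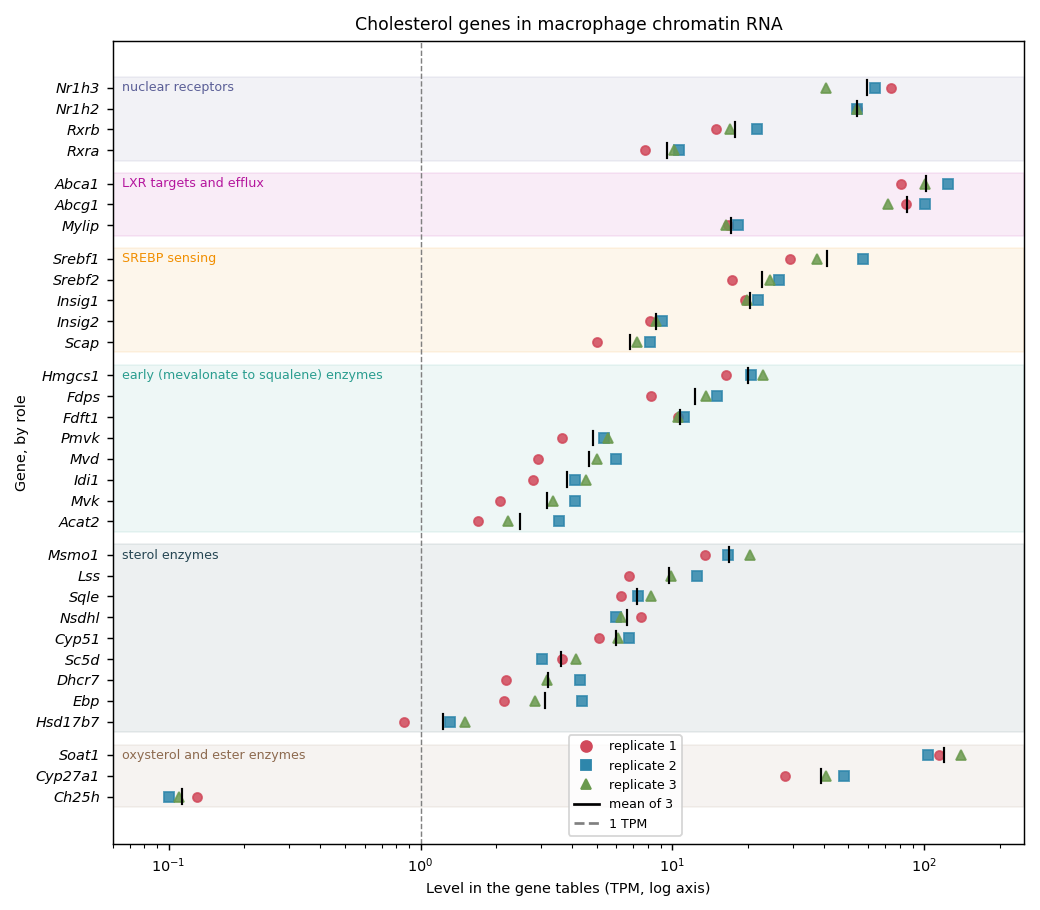
Level of each gene in each library in TPM (log axis), grouped by role, with the mean of 3 libraries as a black bar and the detection limit of 1 TPM as a dashed line. Soat1, Abca1 and Abcg1 average 119, 102 and 85.5 TPM, the 17 synthesis enzymes all lie under 25 TPM, and Ch25h stands alone near 0.1 TPM.

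**Figure D2:**
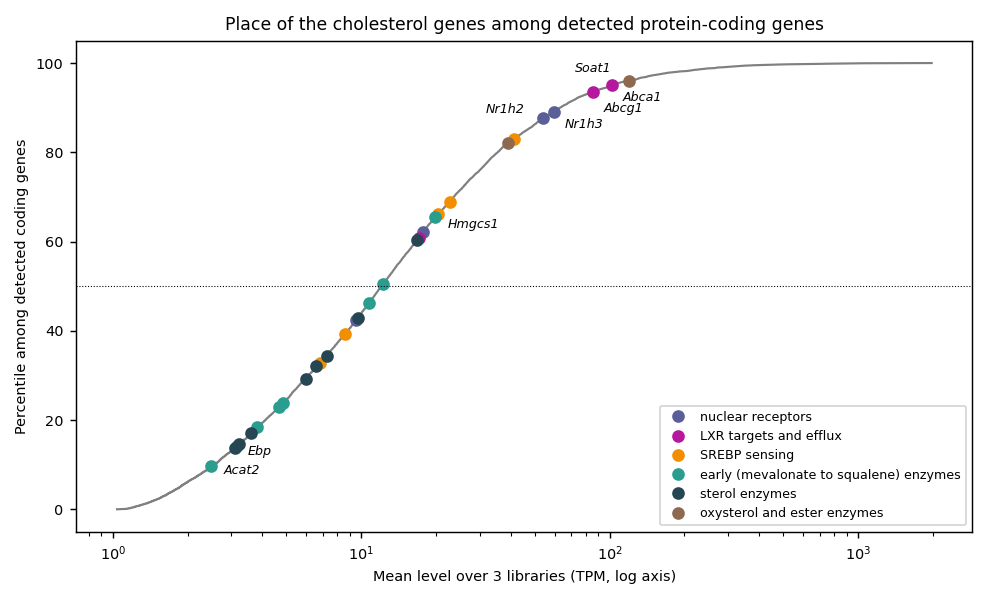
Percentile of each detected gene (points, coloured by role) among the 10050 detected protein-coding genes (grey line), by mean TPM over 3 libraries on a log axis. Storage and efflux genes sit above the 90th percentile and 18 of the 32 genes, drawn or undetected, rank below the dotted median.

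The liver X receptors were the most abundant of the nuclear receptors in TPM. Nr1h3 encodes LXRα, the isoform typical of macrophages and liver, and showed 73.7, 63.7 and 40.9 TPM in replicates 1, 2 and 3. Nr1h2 encodes the widely expressed LXRβ and showed 54.1, 53.9 and 54.2 TPM. Nr1h2 was therefore nearly level across libraries in the gene tables, while Nr1h3 crossed it: Nr1h3 was the higher of the pair in replicates 1 and 2 and the lower in replicate 3. Nr1h3 minus Nr1h2 averaged 0.09 ± 0.44 on the log2(TPM + 0.1) scale, and an exact two-sided sign-flip test over the 3 libraries gave p = 0.75. With 3 libraries this test cannot give a p below 0.25, so for all 5 pairs compared here the value and its spread are what can be read. Nr1h3 (ENSMUSG00000002108.10) lies on mm10 chromosome 2, 91184061 to 91202834, minus strand, and Nr1h2 (ENSMUSG00000060601.13) on chromosome 7, 44549616 to 44553951, minus strand.

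Their RXR partners were lower in TPM. Rxrb showed 14.9, 21.6 and 17.0 TPM, and Rxra 7.77, 10.7 and 10.2 TPM, so the groups of values did not overlap. Rxra minus Rxrb was −0.89 ± 0.14 in log2, with Rxra lower in 3 of 3 libraries (exact sign-flip p = 0.25, adjusted p = 0.417 over 5 pairs). The gap depended on the quantification and on length scaling. In the second transcript tables Rxra averaged 16.9 and Rxrb 20.4 TPM, a log2 difference of −0.28 ± 0.20. In CPM, which uses the same counts as the gene tables without length scaling, it turned to 1.07 ± 0.11. The order of Rxra and Nr1h2 was not settled in CPM either. Rxra was at 35.2, 42.1 and 40.3 CPM and Nr1h2 at 45.8, 43.4 and 39.2 CPM in replicates 1, 2 and 3. The level of Nr1h2 was less steady in the second tables, at 62.8, 44.6 and 49.0 TPM in replicates 1, 2 and 3. The co-repressor gene Ncor1, whose product LXRs bind in the absence of ligand, was at 223, 212 and 197 TPM, while Rxrg, the third RXR gene, was listed at 0 in the gene tables.

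The efflux pumps stood near the top of the set. Abca1 encodes the transporter that loads cholesterol onto apolipoprotein A-I, and reached 80.6, 125 and 101 TPM on 10392, 20595 and 16388 counts. Abcg1, whose product passes cholesterol to mature HDL particles, reached 84.7, 100.35 and 71.6 TPM. Their order was not settled: Abca1 was above Abcg1 in replicates 2 and 3 and below it in replicate 1. Abca1 minus Abcg1 was 0.24 ± 0.29 in log2 (exact sign-flip p = 0.5, adjusted p = 0.625) and −0.095 ± 0.23 in the second tables, where Abcg1 averaged 119 and Abca1 111 TPM. Both ranked high among detected coding genes, at percentile 95.04 for Abca1 and 93.6 for Abcg1. Abca1 (ENSMUSG00000015243.4) spans 129109 bases of chromosome 4, 53030787 to 53159895 on the minus strand, and Abcg1 (ENSMUSG00000024030.7) lies on chromosome 17, 31057675 to 31117988, plus strand.

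Mylip encodes IDOL, an LXR-induced ubiquitin ligase that sends lipoprotein receptors to degradation. It stood at 16.6, 18.2 and 16.4 TPM and was among the steadiest of the set, with an SD of 1.03 TPM over the 3 libraries. Mylip was thus detected at a lower level than the pumps in every library.

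An LXR–RXR pair binds direct repeats with a spacer of 4 bases. Promoter windows of 250 bases before to 50 after the start site were taken from RefSeq (GRCm38.p6, the assembly of mm10) and matched 28 of the 32 genes. Abcg1, Fdps, Fdft1 and Sqle had no entry. A pair of GGTNA half-sites on 1 strand, with starts 10 bases apart, was searched on both strands. It occurred in 1 of the 28 windows, that of Abca1, and in 0.719% of all 32544 windows. The stretch is shown because it places the repeat, on the strand opposite to the gene, just before the start of the most read-rich gene of the set. It runs from 110 bases to 1 base before the start (GRCm38.p6 chr4:53159896-53160005, minus strand), with the repeat in capitals.
Abca1: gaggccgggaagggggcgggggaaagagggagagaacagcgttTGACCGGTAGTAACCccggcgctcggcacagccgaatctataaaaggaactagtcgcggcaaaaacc
No binding was measured here, and a match of letters is not a site known to be used here.

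Ester storage and oxysterol synthesis spanned the whole range. Soat1 encodes the acyltransferase that esterifies cholesterol for lipid droplets, and was the highest of the 32 genes by mean, at 114, 104 and 140.5 TPM. It was above Abca1 in replicates 1 and 3 and below it in replicate 2, so the order of the top pair was not settled. Cyp27a1, the mitochondrial sterol 27-hydroxylase, reached 27.9, 48.2 and 40.6 TPM, lowest in replicate 1. Ch25h, the cholesterol 25-hydroxylase whose product is an oxysterol that blocks SREBP processing and is made by activated macrophages, was the opposite extreme. It had 2 counts in each library and 0.13, 0.10 and 0.11 TPM. The 6 counts together have an exact Poisson 95% interval of 2.20 to 13.1, or 0.0426 to 0.253 CPM, which covers counting error only. Ch25h alone of the 32 genes fell below the filter on low counts used for the replicate test. Cyp7b1, which converts 25-hydroxycholesterol further, and Cyp46a1, the brain 24-hydroxylase, were both listed at 0.

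The sterol-sensing machinery was detected in full. Srebf1, which encodes SREBP-1 and is itself an LXR target, showed 29.4, 57.0 and 37.4 TPM. Srebf2, which encodes SREBP-2, the main activator of cholesterol synthesis, showed 17.3, 26.6 and 24.4 TPM. Srebf1 was the higher of the pair in all 3 libraries. Srebf2 minus Srebf1 was −0.82 ± 0.25 in log2 (exact sign-flip p = 0.25, adjusted p = 0.417), and 0.22 ± 0.26 in CPM without length scaling. Scap, the escort, was at 5.04, 8.13 and 7.26 TPM. The intronic miRNA gene Mir33, which lies inside Srebf2 and whose product represses Abca1, was listed at 0 in the gene tables. Mir6921 and Mir6922, inside Srebf1, were at 0 as well. The labels give a size range of 250 to 400, above the length of a miRNA, so the 0 does not show that Mir33 is silent.

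Insig1 and Insig2 encode the endoplasmic reticulum anchors. Insig1, itself an SREBP target, showed 19.4, 21.9 and 19.8 TPM, and Insig2 8.12, 9.07 and 8.58 TPM. Both were nearly level across libraries, and Insig2 minus Insig1 was −1.24 ± 0.03 in log2, 3 of 3 libraries below (exact sign-flip p = 0.25, adjusted p = 0.417). This gap rested on the point estimate used. By the posterior mean TPM of the same gene tables it was −0.36 ± 0.03, and in the second tables −0.19 ± 0.17, with Insig2 at 17.5 and Insig1 at 19.9 TPM. The TPM of Insig2 lay below the quantifier's own interval in every library (8.12 against 8.86 to 19.3 in replicate 1), as did that of Scap. Misses on the other side occurred too. The TPM of Abca1 lay above its interval in every library (80.6 against 72.2 to 76.7 in replicate 1), as did that of Abcg1. The level of these deposited intervals is not given in the sources used here.

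The early enzymes turn acetyl units into squalene. Hmgcs1, the synthase that makes HMG-CoA, led them with 16.3, 20.5 and 22.8 TPM. Fdps, which makes farnesyl diphosphate, showed 8.20, 15.0 and 13.6 TPM, and Fdft1, squalene synthase, 10.5, 11.2 and 10.6 TPM. The enzymes between them were lower. Pmvk and Mvd, which act on mevalonate phosphates, stood at 3.64, 5.37 and 5.55 TPM and at 2.94, 6.00 and 5.03 TPM. Idi1, the isomerase of isopentenyl diphosphate, was at 2.80, 4.11 and 4.55 TPM. Mvk, mevalonate kinase, was at 2.06, 4.09 and 3.36 TPM, and Acat2, the cytosolic thiolase that starts the route, at 1.69, 3.56 and 2.23 TPM. The TPM of all 8 was lowest in replicate 1, as was that of 43.5% of all genes tested. That of Fdft1 moved by less than 1 TPM between libraries, and in log2 CPM Fdft1 was highest in replicate 1.

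The sterol enzymes carry squalene to cholesterol. Msmo1, the C4-methyl sterol oxidase, was highest at 13.5, 16.6 and 20.3 TPM. Lss, which closes the sterol rings, showed 6.75, 12.5 and 9.89 TPM, and Sqle, squalene epoxidase, 6.23, 7.32 and 8.23 TPM. Lss lay above Sqle in all 3 libraries. Nsdhl, a C4 decarboxylating dehydrogenase, showed 7.51, 5.98 and 6.27 TPM, and Cyp51, the lanosterol 14-demethylase, 5.12, 6.72 and 6.09 TPM. Sc5d, the C5 desaturase, was at 3.65, 3.05 and 4.15 TPM, and Dhcr7, the last reductase of the Kandutsch-Russell branch, at 2.19, 4.30 and 3.17 TPM. Ebp, the sterol isomerase, was at 2.14, 4.36 and 2.84 TPM on only 22, 53 and 33 counts. Hsd17b7, the 3-keto reductase, missed the detection limit in replicate 1 alone, at 0.86, 1.31 and 1.50 TPM, so 31 of the 32 genes were detected once that library was left out.

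With the genes ranked by mean TPM, 8 of the 31 steps between neighbours exceeded the SD of their within-library difference with the same order in all 3 libraries. The steps were from Abcg1 to Nr1h3, Cyp27a1 to Srebf2, Msmo1 to Fdps, Insig2 to Sqle, Cyp51 to Pmvk, Ebp to Acat2, Acat2 to Hsd17b7 and Hsd17b7 to Ch25h. The other neighbours did not differ beyond their spread. The largest step was the last, 2.60 ± 0.47 in log2(TPM + 0.1).

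Promoters of synthesis genes are known for sterol regulatory elements, bound by SREBPs, together with CCAAT boxes, bound by NF-Y, and GC boxes, bound by Sp1. In the same 28 windows, searched on both strands, the element TCACNCCAC occurred in 1 window, that of Hmgcs1, and in 1.24% of all windows. Only this spelling was searched, so a window without it is not shown to lack a sterol regulatory element. CCAAT occurred in 19 of 28 windows, or 67.9%, and in 37.4% of all windows. GGGCGG occurred in 22 of 28, or 78.6%, and in 35.9% of all. The set of all windows includes promoters of genes that are silent here, and ATTGG, the reverse complement of CCAAT, can share bases with GGGCGG. By role, CCAAT was in 5 of the early enzymes, 7 of the sterol enzymes, 4 of the sensing genes and none of the nuclear receptors. The early enzymes Fdps and Fdft1 and the sterol enzyme Sqle had no window and could not be counted. The start sites used for 24 of the 28 windows lie within 100 bases of the gene start in the annotation the tables use. The others were those of Nr1h3 at 7718 bases, Rxra at 761, Msmo1 at 214 and Idi1 at 105. For the nuclear receptors Nr1h3 and Rxra the annotated gene start therefore lay outside the window searched.

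Stretches of 3 windows are shown because they hold the sterol element (Hmgcs1), the most CCAAT boxes of the 28 windows (Mvk) and the boxes of a sensing gene (Insig2), read as CCAAT or its reverse complement ATTGG. The Hmgcs1 stretch covers 200 bases to 1 base before the start (GRCm38.p6 chr13:119690151-119690350, plus strand), the Mvk stretch 190 to 1 (chr5:114444079-114444268, plus strand) and the Insig2 stretch 150 to 1 (chr1:121332590-121332739, minus strand). Capitals mark the boxes and, in Hmgcs1, the 9-letter sterol element between them.
Hmgcs1: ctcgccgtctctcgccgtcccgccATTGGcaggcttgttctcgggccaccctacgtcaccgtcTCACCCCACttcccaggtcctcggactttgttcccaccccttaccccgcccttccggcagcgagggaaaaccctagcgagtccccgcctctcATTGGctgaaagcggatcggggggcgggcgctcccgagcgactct
Mvk: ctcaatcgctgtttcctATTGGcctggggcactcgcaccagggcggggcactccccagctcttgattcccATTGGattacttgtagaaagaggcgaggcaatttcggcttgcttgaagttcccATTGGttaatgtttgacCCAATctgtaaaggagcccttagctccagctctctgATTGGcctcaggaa
Insig2: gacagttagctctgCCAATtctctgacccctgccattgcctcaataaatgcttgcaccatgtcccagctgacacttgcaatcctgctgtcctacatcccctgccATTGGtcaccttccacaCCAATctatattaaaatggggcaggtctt
The Hmgcs1 stretch holds 2 boxes and the element, the Mvk stretch 5 boxes and the Insig2 stretch 3.

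Replicates were then compared gene by gene, since the labels differ in input RNA. An intercept-only negative binomial model with trended dispersion was fitted in edgeR to all 14789 genes that passed its filter on low counts, and each gene's deviance was tested against that trend with Benjamini-Hochberg adjustment. By this test 1.12% of all genes varied more than genes of their level, and none of the 31 cholesterol genes tested did. At an unadjusted p below 0.05 there were 4 of the 31, against 899 of 14789 genes, and DESeq2 called none of the 31 as a dispersion outlier. The 4 were Fdps (edgeR adjusted p = 0.437), Nr1h3 (adjusted p = 0.671), Srebf1 (adjusted p = 0.751) and Lss (adjusted p = 0.777). The median SD of log2 CPM (counts scaled to library size, with TMM) was 0.28 over the 31 genes and 0.19 over all genes tested.

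The direction of this spread was shared by many of the genes. In log2 CPM 23 of the 31 were lowest in replicate 1, against 39.8% of all genes tested, and 3 of the 31 were highest there, against 38.1%. Among the synthesis enzymes 14 of 17 were lowest in replicate 1 and none in replicate 3. The median deviation from the gene mean in replicate 1 was −0.26 over the 31 genes and −0.26 over the 17 enzymes, against −0.0066 over all genes tested. Fdps deviated most, by −0.63, 0.25 and 0.38 in replicates 1, 2 and 3. Mvd followed at −0.53, 0.32 and 0.21, and Lss at −0.48, 0.30 and 0.18. Sensing genes took part, with 4 of 5 lowest in replicate 1 and a median deviation there of −0.34.

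Some genes did not follow. Nr1h3 ran the other way at 0.38, 0.06 and −0.44, Nsdhl was highest in replicate 1 at 0.23, −0.21 and −0.02, and the LXR targets and efflux genes had a median deviation of −0.01 in replicate 1. Within that group Abca1 was at −0.31 in replicate 1 and Abcg1 at 0.08. Fdft1, the third gene that was highest in replicate 1, deviated by 0.02 at most in any library. The counts of lowest genes were 22 of 31 and 13 of 17 enzymes both with DESeq2 size factors and in the second tables. Counting the lowest replicate was chosen after the values had been seen. Replicate 1 also had the smallest total and the largest labelled input, with 1 library per amount of input. Counts outside annotated genes were 1.39% there, against 0.288% and 0.283% in replicates 2 and 3, and the macrophage marker Cd14 was at 6.81 TPM, against 19.6 and 20.4 TPM. The part these play in the pattern was not tested.

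**Figure D3:**
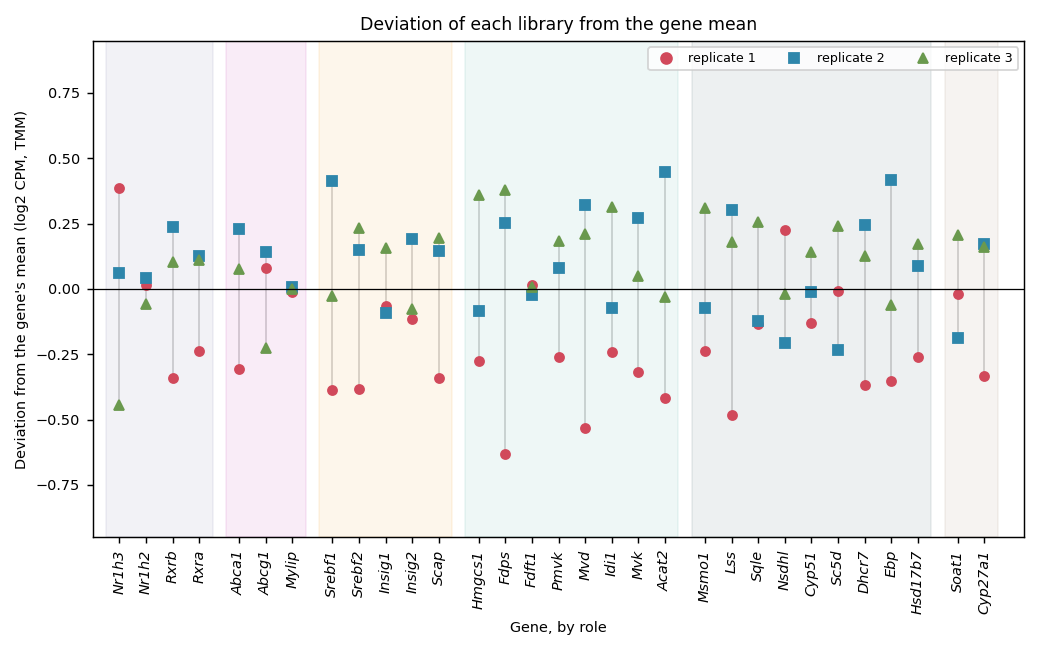
Deviation of each library from the gene's own mean in log2 CPM with TMM scaling, for the 31 genes tested, grouped and shaded by role. Replicate 1 (circles) lies lowest for 23 of 31 genes and for 14 of the 17 enzymes, while Nr1h3 and Nsdhl run the other way.

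Other genes of the pathway gave context. Of 43 further genes of sterol and fatty acid handling, 35 were detected and 3 were listed at 0, which are Rxrg, Cyp7b1 and Cyp46a1. Lrp1, a receptor for lipoprotein remnants, was highest at 249, 287 and 259 TPM, followed by Ncor1 and by Npc2, the lysosomal sterol carrier, at 151, 136 and 122 TPM. Lipa, the lysosomal acid lipase that frees cholesterol from esters, was at 73.9, 74.1 and 80.2 TPM. Npc2 and Lipa were thus above every synthesis enzyme in each library. Genes of fatty acid synthesis, which is driven by SREBP-1, differed in level and in spread between libraries. Acly was at 26.2, 36.3 and 33.5 TPM and Acaca at 25.8, 34.9 and 30.4 TPM. Fasn, fatty acid synthase, was at 3.83, 12.4 and 9.53 TPM and Scd1, a desaturase, at 0.02, 0.51 and 0.08 TPM, while the related Scd2 reached 18.7, 42.3 and 28.4 TPM. Aacs, which activates acetoacetate for lipid synthesis, was at 5.80, 21.2 and 19.3 TPM, and at 30.1, 40.5 and 40.3 TPM in the second tables. Elovl6, a fatty acid elongase, was highest in replicate 1, at 2.40, 1.68 and 1.74 TPM. In the second tables Elovl6 was lowest there, at 4.52, 6.55 and 6.21 TPM. Over the list 24 of 37 tested genes were lowest in replicate 1 in log2 CPM, against 39.8% of all genes tested, and 8 were highest there, against 38.1%.

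The transcript tables split each gene by annotated transcript type. In the annotation 22 of the 32 genes have a transcript that retains an intron. In these 22 the median share of TPM on such transcripts was 46.4% ± 4.35 (SD, n = 3), against 45.6% ± 0.711 in 6342 detected coding genes with such a transcript. The share exceeded 50% in 9 of the 22, against 42.2% of the 6342, so the genes as a set were near the background. By expected counts the medians were 24.7% and 29.2%, and by the second quantification 42.5% and 44.3%. Unspliced reads from anywhere in a gene may be counted to these transcripts, so the share is not a measure of any single intron.

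Single genes spread widely around that median. Ebp had 95.8%, 90.3% and 92.6% of its TPM on retained-intron transcripts, Sqle 77.7%, 70.8% and 70.1%, and Lss 68.9%, 59.4% and 67.8%. All 3 are sterol enzymes and held their high share in every library and in the second tables, where the means were 93.0%, 70.7% and 67.1%. Genes of other roles had high means in both as well. In the first and second tables Rxrb had 61.0% and 73.2%, Insig2 61.4% and 65.7%, and Cyp27a1 62.0% and 57.4%. By expected counts Rxrb, Insig2 and Cyp27a1 were at 27.9%, 19.0% and 30.0%, against 85.4%, 77.5% and 85.9% for Ebp, Sqle and Lss. Nsdhl lay far lower at 12.5%, 9.03% and 11.6%, and Fdft1 at 3.05% ± 2.25. Mvk was unsteady, at 59.7%, 30.6% and 28.6% on 49, 102 and 77 counts. The median over the sterol enzymes with such a transcript was 58.7% ± 2.84 (7 genes), against 31.7% ± 0.274 over the early enzymes (5 genes). In the second tables these medians were 41.2% ± 5.03 and 36.4% ± 2.53, so the difference between the enzyme groups was small there. By expected counts they were 76.3% ± 2.41 and 20.6% ± 1.14, so its size depended on the unit and the quantification.

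Other transcript types took large shares of some genes. Srebf1 has no annotated retained-intron transcript, and 67.1% ± 0.831 of its TPM lay on transcripts annotated as processed without a coding frame, or 77.0% in the second tables, but 18.7% by counts. By the second quantification 55.4% ± 15.9 of Mvd lay on a transcript annotated for nonsense-mediated decay and 53.0% ± 2.39 of Dhcr7 on a processed transcript, against 5.57% and 4.03% in the first tables. Acat2 and Hsd17b7 had 30.9% and 30.5% on processed transcripts in the second tables, against 9.42% and 20.0% in the first. The leading transcript was the same in both kinds of table for 22 of the 32 genes.

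**Figure D4:**
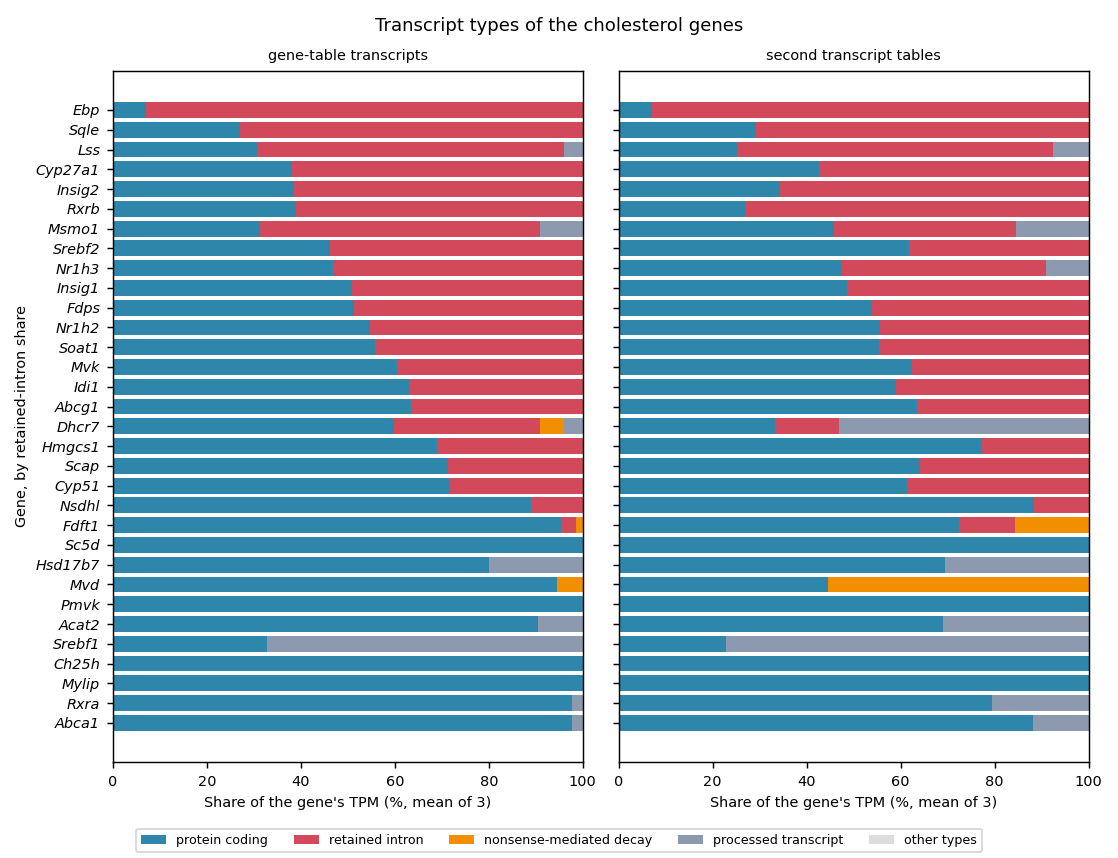
Share of each gene's TPM by annotated transcript type (mean of 3 libraries), in the transcripts behind the gene tables (left) and in the second transcript tables (right), with genes ordered by their retained-intron share on the left. Ebp, Sqle, Lss, Rxrb, Insig2 and Cyp27a1 are mostly retained-intron RNA in both panels, while Mvd and Dhcr7 change type between panels.

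The second tables gave higher levels for 27 of the 32 genes and lower ones for 5. The median log2 ratio of the second tables to the gene tables was 0.41 ± 0.10 over the 32 genes, against 0.38 ± 0.14 over all detected coding genes, so the shift was general. The ratio exceeded 2 for 3 genes, at 2.71 for Dhcr7, 2.55 for Mvd and 2.02 for Insig2. For Mvd the order of libraries changed as well, with 12.6, 11.8 and 10.3 TPM in replicates 1, 2 and 3 of the second tables. The gene tables' intervals of all 3 libraries overlapped for 17 of the 32 genes, and for 15 of the 30 detected ones, against 63.6% of detected coding genes. They overlapped for Nr1h2, Insig1 and Fdft1, among others, and did not for 15 genes, which include Abca1, Nr1h3, Srebf1 and Fdps.

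**Figure D5:**
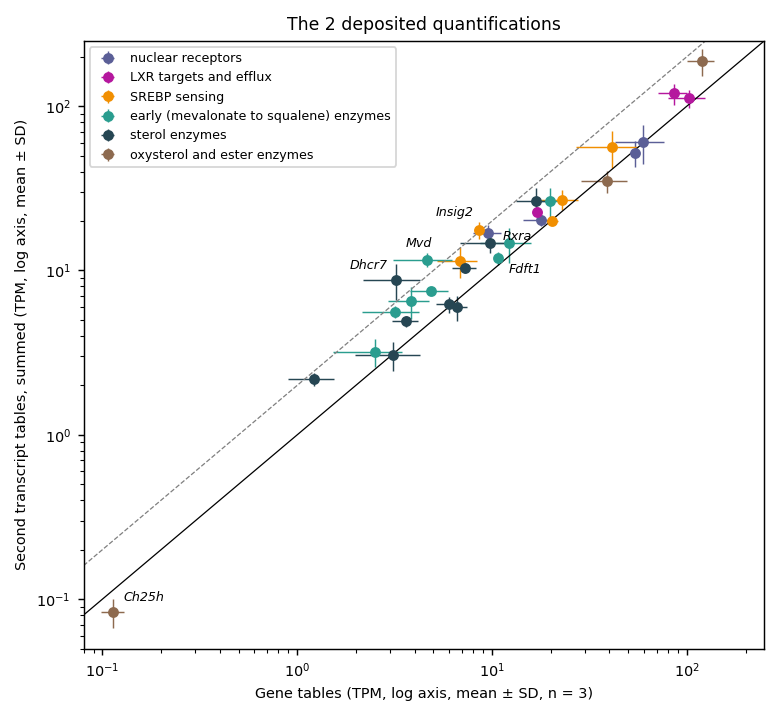
Mean TPM of each gene in the second transcript tables against the gene tables (log axes, bars are SD over 3 libraries), with the line of equality solid and a ratio of 2 dashed. Most points lie between the lines, Dhcr7, Mvd and Insig2 lie above the dashed one, and Ch25h is near 0.1 TPM in both.

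Some of these loci share sequence with other genes, which can move reads between them. Fdft1 overlaps the cathepsin gene Ctsb on the opposite strand over 774 exon bases, 18.3% of its own, and Ctsb stood at 431, 436 and 407 TPM. Cyp51 shares 166 exon bases with Akap9 and Srebf1 shares 109 with Rai1, each on the opposite strand. Whether the counting used strand is not given in the sources used here, so reads in these stretches cannot be told apart. Acat2 is 97.7% identical to its neighbour Acat3 over 1477 bases, with Acat2 at 1.69, 3.56 and 2.23 TPM and Acat3 at 1.39, 0.99 and 1.08 TPM. Acat2 also shares 445 bases at 98.7% identity with Tcp1 on the opposite strand, and Tcp1 was at 28.0, 31.0 and 23.0 TPM. Fdps, Fdft1 and Idi1 have processed pseudogenes in the annotation. The closest to Idi1, Gm13502, is 100% identical over 684 bases and was at 0.17, 1.77 and 1.55 TPM, so the levels of Idi1 and Acat2 are uncertain. Msmo1, Dhcr7, Soat1 and Hmgcs1 share shorter stretches with many other genes. Msmo1 shares 202 bases at 97.5% identity with Zmynd8, at 161, 162 and 164 TPM. Dhcr7 shares 221 bases at 97.3% with A530040E14Rik, at 27.0, 15.9 and 10.4 TPM. The part these stretches play in the levels was not tested.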

How the data were processed

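Total RNA sequencing of chromatin RNA was deposited as 3 libraries of 1 condition. The authors deposited gene and transcript tables with expected counts, TPM, posterior mean TPM and interval bounds (signal in TPM units), and a second kind of transcript table with estimated counts and TPM, on mm10 with GENCODE M21, per the file headers and labels. Their columns are those that RSEM and kallisto write; the sources used here name no tool, version, strand setting or interval level. All 55536 gene IDs matched GENCODE M21, and 86 IDs absent from the second tables were set to 0. Entries outside genes (1.39%, 0.288% and 0.283% of expected counts in replicates 1, 2 and 3) were left out of totals and tests.

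Levels were compared between genes as log2(TPM + 0.1). Expected counts were rounded for edgeR 4.0.16 (R 4.3.3): filterByExpr, TMM, intercept-only model with trended dispersion, deviance against chi-square, Benjamini-Hochberg adjustment at 0.05, log2 CPM with a prior count of 2. The step was also run on counts simulated from its own fitted means and dispersions, with some genes changed in 1 library. Such counts cannot check the model, and the share of changed genes found is not given here. A gene that was not called is therefore not shown to be steady. DESeq2 1.42.0 was an alternative. At 3 counts, a gene without counts could reach 0.222, 0.150 and 0.165 CPM in replicates 1, 2 and 3, by counting error alone. Near copies were sought with blastn 2.17.0 (at least 95% identity over 100 bases). Other steps ran in Python 3.11.15 with scipy 1.17.1, pandas 2.3.3 and numpy 2.4.6. The 32 genes, their 6 role groups and the other lists were chosen with earlier results of these data known. All 32 genes were named, and of the other pathway genes the 3 highest, those listed at 0 and some picked to describe a step.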

Additional observations from a re-analysis of the deposited data

How the results depend on the processing

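The count of 30 detected genes was 31 in the second tables, by posterior mean TPM, in CPM and at 0.5 TPM, 22 at 5 TPM, and 30 to 31 with 1 library left out. Medians over gene groups, in log2, moved by more than their SD in several settings. In the second tables they were 3.87 over all 32 genes, 6.76 over LXR targets and efflux, 3.22 over early enzymes and 2.75 over sterol enzymes. In CPM without length scaling they were 4.35 over all 32, 5.36 over nuclear receptors, 7.58 over LXR targets and efflux, 4.80 over sensing genes, 2.67 over early and 3.51 over sterol enzymes. Means in place of medians gave 5.72 for LXR targets and efflux, 4.01 for sensing genes, 2.34 for sterol enzymes and 3.30 for oxysterol and ester enzymes. Differences within pairs turned sign for Abca1 minus Abcg1 (−0.095 in the second tables), for Rxra minus Rxrb (1.07 in CPM), for Srebf2 minus Srebf1 (0.22 in CPM) and for Nr1h3 minus Nr1h2 (−0.082 to 0.34 with 1 library left out). The values in CPM rest on the same counts as the TPM, so length scaling is what differs there. The cause of the other changes was not tested. The 166 genes that varied beyond the trend became 273 in the second tables, 61 as DESeq2 dispersion outliers and 56 to 76 with 1 library left out, where fewer libraries entered, and none of the 31 genes tested was called in any of these, nor any of the 32 without the filter on low counts. The median retained-intron share, 32.04% over all 32 genes with those lacking such a transcript at 0, was 12.9% by expected counts, 35.6% in the second tables and 46.4% over the 22 genes with one, a set added after the values had been seen. Leaving out 1 of 3 libraries cannot move a gene's mean TPM beyond its SD over all 3, so that setting does not test single levels. The second tables kept the mean TPM within that SD for 11 of 32 genes. Identity between the proteins of paralogous genes was planned and not run. No paired analysis was possible because there is 1 group. Depth limits Ch25h, Ebp, Acat2 and Hsd17b7 most.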
